A study of Danio rerio with 13 samples.

Results

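The expression of p53 target genes was measured by RNA sequencing in zebrafish brains that carried 0, 1 or 2 mutant copies of tert, the gene for the catalytic subunit of telomerase. The genes were chosen by name from the count table: mdm2, cdkn1a, ccng1, rrm2b, ppm1d, bbc3 and sesn1. These 7 names matched 8 of the 32105 genes in the table, because ppm1d is carried by 2 zebrafish identifiers (ENSDARG00000009273 and ENSDARG00000021380), which were kept apart. All 8 passed the filter on low counts, as did 20064 genes in all. The brains came from 3 tert-/- fish, which carry the mutant allele on both copies, 5 tert+/- fish, which carry it on 1 copy, and 5 wild-type fish. All 13 fish were male, 3 months old and of the AB strain, and each gave 1 library. The study's methods name the mutant line as tert hu3430, an allele with a premature stop codon that every cell of the fish carries, so its transcript need not be absent. Libraries are called by genotype and a number that only names the fish.

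As background, p53 is a transcription factor that cells stabilise when their DNA is damaged or when telomeres become too short to be capped. In human and mouse cells it then switches on genes that fall into a few roles. Mdm2, Ppm1d and Ccng1 feed back on p53 and restrain it, Cdkn1a halts the cell cycle, Rrm2b supplies nucleotides for repair in cells that do not divide, Sesn1 restrains growth signalling and oxidative damage, and Bbc3 triggers cell death.

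The libraries held 22008289 to 32380953 counted reads. Pairs of libraries correlated at 0.950 to 0.980 across genes (log2 CPM, where CPM is the read count scaled to library size with TMM factors). Neuron markers summed to 7641 to 8582 CPM in tert-/- brains, 7578 to 8930 CPM in tert+/- brains and 7464 to 8311 CPM in wild-type brains. Photoreceptor markers, from 10 genes, summed to 3.53 to 5.52 CPM in tert-/- brains, 3.22 to 260.7 CPM in tert+/- brains and 5.41 to 547 CPM in wild-type brains. The highest were wild-type 5 (547 CPM), tert+/- 3 (260.7 CPM) and, far below them, wild-type 1 (31.5 CPM), with tert+/- 5 next at 7.74 CPM. The first 3 of these are called photoreceptor-high below. Of the 12 marker lists examined, 11 had overlapping ranges between every pair of genotypes. On the first principal component of all genes, which held 17.7% of the variance, tert+/- 1 and tert-/- 1 scored 59.1 and 56.7, while the other 11 libraries lay between −35.8 and 13.4. The tert transcript itself was present in all fish, at 8.02 ± 3.53 CPM in tert-/- brains (SD, n = 3), 5.70 ± 1.92 CPM in tert+/- brains (n = 5) and 2.55 ± 0.776 CPM in wild-type brains (n = 5). These are whole brains, in which fewer cells of a type and less RNA per cell cannot be told apart.

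Of the 8 target genes, rrm2b stood farthest from wild type, with a higher mean in both mutant genotypes (47.2 CPM in tert-/- and 52.2 CPM in tert+/- brains, against 36.9 CPM in wild-type brains). mdm2 had close mean levels in the 3 genotypes (29.7, 30.7 and 29.7 CPM in tert-/-, tert+/- and wild-type brains). No target passed an adjusted p of 0.05 in edgeR's quasi-likelihood test with Benjamini-Hochberg adjustment, in any of the 3 comparisons, and neither did any gene of the table (0 of 20064, or 0%, in each). DESeq2 called 16 genes in tert-/- against wild type (0.0593% of those it tested), 28 in tert+/- against wild type (0.12%) and 18 in tert-/- against tert+/- (0.0723%). A single target was among them, rrm2b in tert+/- against wild type.

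At an unadjusted p under 0.05, edgeR gave 1 of the 8 targets in tert-/- against wild type, 1 in tert+/- against wild type and 0 in tert-/- against tert+/-. The first 2 are rrm2b, higher in the mutant each time. Over all genes the same limit was passed by 0.832% as higher and 1.31% as lower in tert-/- against wild type, by 4.11% and 3.63% in tert+/- against wild type, and by 2.19% and 2.43% in tert-/- against tert+/- brains. The targets did not move together in one direction. In tert-/- against wild type 6 had a positive log2 fold change and 2 a negative one, with a median of 0.04 beside 0.00 over all genes. In tert+/- against wild type 3 were positive and 5 negative (median −0.09, beside 0.00 over all genes), and in tert-/- against tert+/- 5 were positive and 3 negative (median 0.15, beside 0.00). Any 2 of these comparisons share the fish of 1 genotype.

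**Figure D1:**
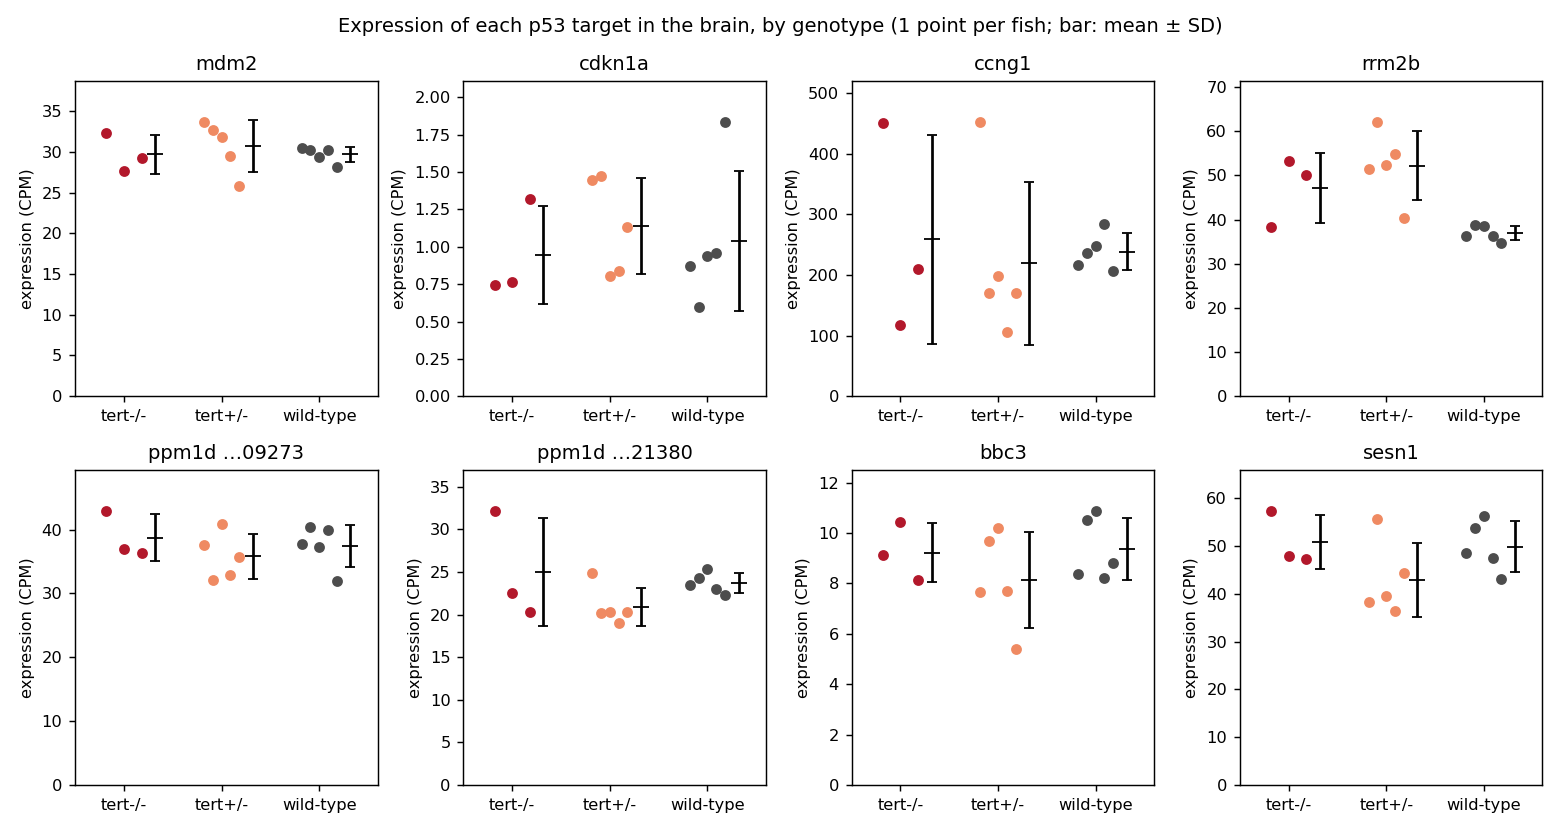
Expression of the 8 p53 targets in CPM (vertical axes, from 0) in each fish of the 3 genotypes (horizontal axes), with the mean ± SD beside the points. The rrm2b panel shows all 5 tert+/- fish (40.3 to 62.1 CPM) above all 5 wild-type fish (34.8 to 38.7 CPM), and the ccng1 panel shows tert-/- 1 and tert+/- 1 near 450 CPM.

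rrm2b (ENSDARG00000033367) encodes the p53-induced small subunit of ribonucleotide reductase, the enzyme that makes deoxyribonucleotides, and in mammals it serves DNA repair and mitochondrial DNA in cells outside S phase. It had 51.4, 62.1, 52.5, 54.9 and 40.3 CPM in tert+/- fish 1 to 5, against 36.3, 38.7, 38.5, 36.3 and 34.8 CPM in wild-type fish 1 to 5. Every tert+/- fish lay above every wild-type fish, and the lowest of them, tert+/- 5, did so by a narrow margin. Ranges were apart in this way, with tert+/- higher, for 0.852% of all genes tested. The means were 52.2 ± 7.85 CPM in tert+/- brains and 36.9 ± 1.64 CPM in wild-type brains (SD, n = 5 each). This is a log2 fold change of 0.50 ± 0.11 (SE, 95% interval 0.26 to 0.74), or 1.42-fold. By p it ranked 21 among all genes in edgeR, where its adjusted p was 0.602, while DESeq2 gave 0.51 ± 0.12 and an adjusted p of 0.0343.

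In tert-/- fish 1 to 3 rrm2b had 38.3, 53.3 and 50.0 CPM, a mean of 47.2 ± 7.86 CPM (SD, n = 3). Fish 2 and 3 lay above every wild-type fish, and fish 1 lay within the wild-type range. Set against wild type, this gave a log2 fold change of 0.35 ± 0.13 (SE, 95% interval 0.08 to 0.63), with rank 107 by p and an adjusted p of 1 in edgeR and in DESeq2. The unadjusted limit of 0.05 was no longer passed without tert-/- 2 (0.27), without tert-/- 3 (0.32) or without the 3 libraries with raised photoreceptor markers (0.32). Without tert-/- 1 the log2 fold change was 0.50. Between the mutants, tert-/- minus tert+/-, it was −0.15 ± 0.13 (95% interval −0.43 to 0.13, edgeR adjusted p = 0.9751), so the levels with 2 and with 1 mutant copies could not be ordered.

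The other ribonucleotide reductase genes had 95% intervals that include 0 in every comparison. rrm2, the small subunit made in S phase, had 9.83 ± 2.85 CPM in tert-/- brains, 8.83 ± 3.40 CPM in tert+/- brains and 8.73 ± 1.87 CPM in wild-type brains, with a log2 fold change of 0.02 ± 0.26 (SE, 95% interval −0.54 to 0.57) in tert+/- against wild type. A second rrm2 identifier, ENSDARG00000020711, had 1 read in all libraries together. rrm1, the large subunit that both small subunits pair with, had 26.8 ± 6.54, 23.2 ± 4.41 and 24.2 ± 5.71 CPM in tert-/-, tert+/- and wild-type brains. Its log2 fold change was −0.06 ± 0.18 in tert+/- against wild type and 0.15 ± 0.21 in tert-/- against wild type.

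By RefSeq, rrm2b lies on the same chromosome as tert, and no other target does. The 2 genes are 797 entries apart in the count table. The alleles that the fish carried at rrm2b were not examined. The tert genotype and any rrm2b allele inherited with it could therefore not be told apart here. Among the 10 entries on each side of rrm2b, a window chosen after its values were seen, 18 genes were tested in tert+/- against wild type. Of these, 15 had a positive log2 fold change, beside 49.4% of all genes. An unadjusted p under 0.05 was reached by 2, both higher, where 4.11% of all genes were higher at that limit: rida (0.27 ± 0.12) and atp6v1c1, a subunit of the vacuolar proton pump (0.17 ± 0.07). Markers of intestine and pancreas, from 7 genes, summed to 26.8 to 46.4 CPM in tert+/- brains, 16.7 to 24.3 CPM in tert-/- brains and 13.3 to 20.5 CPM in wild-type brains. The ranges of tert+/- and wild-type brains were apart, as for rrm2b, while those of tert-/- and wild-type brains overlapped. Those of tert-/- and tert+/- brains were apart as well, where the rrm2b ranges overlapped. The tert+/- fish with least rrm2b, tert+/- 5, had a marker sum of 45.1 CPM. Among the defining genes of that list, chia.3, apoa4b.2 and 1 of the 2 cela1 genes were at 0 in at least 1 library. Glucocorticoid response genes, also from 7, summed to 782 to 1483 CPM in tert+/- brains, 572 to 1007 CPM in tert-/- brains and 472 to 826 CPM in wild-type brains, with overlapping ranges. Within this list fkbp5 alone ran from 74.0 to 883 CPM over the fish. The highest sum was in tert+/- 2, the fish with most rrm2b. The fish with least rrm2b, wild-type 5, had the highest wild-type sum, at 826 CPM. The part of any of these in the rrm2b difference was not tested.

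**Figure D2:**
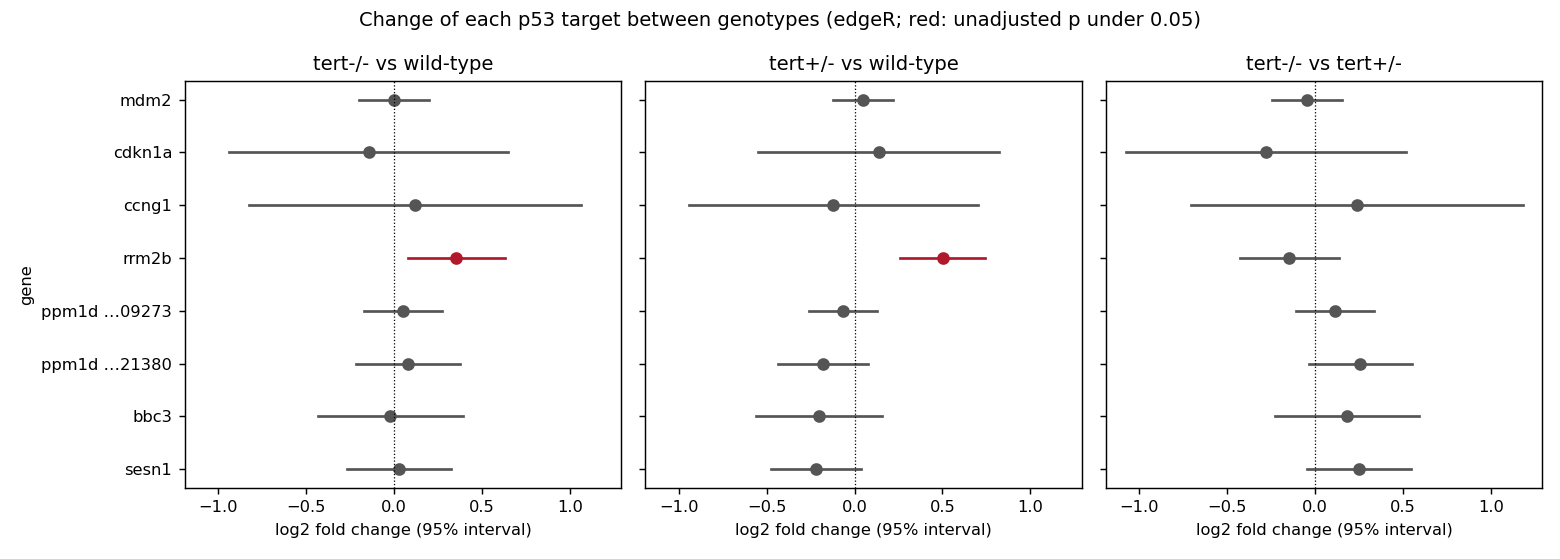
Log2 fold change (horizontal axes) of each p53 target (rows) in the 3 comparisons, with 95% intervals from edgeR; red marks an unadjusted p under 0.05. The rrm2b interval lies above 0 against wild type in tert+/- (0.26 to 0.74) and in tert-/- brains (0.08 to 0.63), and all other intervals include 0.

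The targets that restrain p53 gave no difference past the unadjusted limit between any pair of genotypes when all fish were used. mdm2 (ENSDARG00000033443), the ubiquitin ligase that marks p53 for destruction, had 32.3, 27.6 and 29.2 CPM in tert-/- fish 1 to 3, then 33.6, 32.7, 31.8, 29.5 and 25.7 CPM in tert+/- fish 1 to 5, and 30.4, 30.3, 29.3, 30.3 and 28.2 CPM in wild-type fish 1 to 5. The wild-type values lay inside the tert+/- range, and the 3 genotypes overlapped. In tert-/- against wild type its log2 fold change was 0.00072 ± 0.09 (SE), with a 95% interval of −0.20 to 0.20 that holds changes of 0.872-fold to 1.148-fold. In tert+/- against wild type it was 0.05 ± 0.08 (0.918-fold to 1.165-fold). With 635 to 1041 reads per library, mdm2 was the target measured most evenly, and 80.6% of genes of similar level spread more within genotypes.

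ccng1 (ENSDARG00000076667), cyclin G1, which in mammals brings a phosphatase to Mdm2, was the most variable of the 8. It had 450.5, 116.7 and 209.3 CPM in tert-/- fish 1 to 3, then 452.1, 170.8, 199, 105.4 and 169.6 CPM in tert+/- fish 1 to 5, and 217.2, 236.5, 247.6, 284.6 and 206.8 CPM in wild-type fish 1 to 5. In each mutant genotype fish 1 was far above the rest, and the other mutant fish lay below the lowest wild-type fish, but for tert-/- 3, which was just inside the wild-type range. Its log2 fold changes were 0.12 ± 0.44 for tert-/- and −0.12 ± 0.38 for tert+/- against wild type (SE), with intervals wide enough to hold 0.564-fold to 2.09-fold and 0.520-fold to 1.625-fold. Without tert-/- 1 and tert+/- 1, the 2 libraries that stood apart on the first principal component, it was −0.54 in tert-/- against wild type (edgeR adjusted p = 0.702) and −0.56 in tert+/- against wild type (adjusted p = 0.361), of which the second passed the unadjusted limit of 0.05. In that fit and comparison 2321 of 20362 genes passed the limit. These fish had the most ccng1 of their genotypes, so the lower values follow from leaving them out. Without tert-/- 1 alone the ccng1 value was −0.54 in tert-/- against wild type (adjusted p = 0.923).

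ppm1d encodes the phosphatase Wip1, which in mammals removes damage-induced phosphate from p53 and its kinases. Its copy ENSDARG00000021380 had 32.2, 22.6 and 20.3 CPM in tert-/- fish 1 to 3, then 24.8, 20.2, 20.3, 19.0 and 20.3 CPM in tert+/- fish 1 to 5, and 23.4, 24.3, 25.4, 23.0 and 22.3 CPM in wild-type fish 1 to 5. Fish 1 was again the highest of each mutant genotype, and the other 4 tert+/- fish lay below every wild-type fish. In tert+/- against wild type its log2 fold change was −0.18 ± 0.12 (SE, edgeR adjusted p = 0.719), and without tert-/- 1 and tert+/- 1 it was −0.24 (adjusted p = 0.331), past the unadjusted limit. Between the mutants, tert-/- minus tert+/-, it was 0.26 ± 0.14 (adjusted p = 0.9751). That difference passed the unadjusted limit without tert-/- 3 (0.39) or without tert+/- 1 (0.33). The lowest tert-/- fish was tert-/- 3 and the highest tert+/- fish was tert+/- 1, so these larger differences follow from leaving them out. In those fits 1186 of 20471 and 1204 of 20062 genes passed the limit. The difference was 0.044 without tert-/- 1 and 0.11 without both tert-/- 1 and tert+/- 1. The copy ENSDARG00000009273 averaged 38.7 ± 3.66 CPM in tert-/- brains, 35.8 ± 3.59 CPM in tert+/- brains and 37.4 ± 3.36 CPM in wild-type brains, with all ranges overlapping and log2 fold changes of 0.05 ± 0.10 and −0.07 ± 0.09 against wild type.

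cdkn1a (ENSDARG00000076554) encodes p21, the inhibitor of cyclin-dependent kinases through which p53 stops the cell cycle. It was the lowest target, with 17 to 47 reads per library. It had 0.744, 0.766 and 1.32 CPM in tert-/- fish 1 to 3, then 1.45, 1.47, 0.806, 0.837 and 1.14 CPM in tert+/- fish 1 to 5, and 0.873, 0.596, 0.936, 0.959 and 1.83 CPM in wild-type fish 1 to 5. The highest and the lowest fish were both wild type. With a counting error of about 19.0% per library, its log2 fold change was −0.14 ± 0.37 in tert-/- against wild type (SE, 95% interval −0.94 to 0.65) and 0.14 ± 0.32 in tert+/- against wild type (−0.55 to 0.82). Changes from 0.522-fold to 1.57-fold in tert-/- brains lie inside the interval. Within genotypes the coefficient of variation was 34.6% in tert-/-, 28.04% in tert+/- and 44.9% in wild-type fish. Each value is above that counting error, but the excess was not tested. Without the 3 photoreceptor-high libraries, its log2 fold change was 0.56 in tert+/- against wild type (edgeR adjusted p = 0.907) and 0.18 in tert-/- against wild type. These libraries include the highest wild-type and the lowest tert+/- fish for cdkn1a, and leaving out either raises the tert+/- value.

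bbc3 (ENSDARG00000069282) encodes Puma, which frees the mitochondrial death pathway. It averaged 9.22 ± 1.17 CPM in tert-/- brains, 8.14 ± 1.91 CPM in tert+/- brains and 9.36 ± 1.24 CPM in wild-type brains. The ranges of the 3 genotypes overlapped, and tert+/- 5 was the lowest fish at 5.39 CPM. Against wild type, tert-/- brains gave a log2 fold change of −0.02 ± 0.19 (SE, 95% interval −0.43 to 0.39) and tert+/- brains one of −0.20 ± 0.17 (−0.56 to 0.16). The tert+/- value was −0.086 without tert+/- 5 and −0.37 without the 3 photoreceptor-high libraries (edgeR adjusted p = 0.858 and 0.907).

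sesn1 (ENSDARG00000020693), a sestrin that in mammals inhibits the growth kinase mTORC1, had 57.4, 47.9 and 47.3 CPM in tert-/- fish 1 to 3, then 38.3, 55.7, 39.5, 36.4 and 44.3 CPM in tert+/- fish 1 to 5, and 48.6, 53.8, 56.4, 47.5 and 43.0 CPM in wild-type fish 1 to 5. In 4 of the 5 tert+/- fish it was below every tert-/- fish, and tert+/- 2 was the exception. Its log2 fold change was −0.22 ± 0.12 in tert+/- against wild type (SE, 95% interval −0.48 to 0.04) and 0.25 ± 0.14 in tert-/- against tert+/- brains (−0.05 to 0.54). Without tert+/- 2 these were −0.33 (edgeR adjusted p = 0.633) and 0.36 (adjusted p = 0.9996), both past the unadjusted limit of 0.05. This fish had the most sesn1 of the tert+/- fish, so the larger differences follow from leaving it out. In the same fit 1395 and 777 of 19979 genes passed that limit, in the same order of comparisons. In tert-/- against tert+/- brains the sesn1 value was 0.16 without tert-/- 1 and 0.12 without tert-/- 1 and tert+/- 1, not past that limit. Against wild type, tert-/- brains gave 0.03 ± 0.14 (−0.27 to 0.33).

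Fish of the mutant genotypes spread more than wild-type fish for most targets. The SD of log2 CPM was larger among tert+/- than among wild-type fish for 7 of the 8 targets, and larger among tert-/- than among wild-type fish for 5. Over all genes tested these shares were 72.5% and 60.7%, so a wider spread in the mutants was common in the table as a whole. For rrm2b the SD was 0.25 in tert-/-, 0.23 in tert+/- and 0.06 in wild-type fish, and for ccng1 it was 0.98, 0.76 and 0.18 in the same order.

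Per kilobase of gene length, the targets differed widely in level. ccng1 was highest at 97.4 ± 44.4 CPM per kilobase over the 13 fish (SD), followed by rrm2b at 28.2 ± 5.65. The 2 ppm1d copies came next at 15.0 ± 1.38 (ENSDARG00000009273) and 12.1 ± 1.82 (ENSDARG00000021380), then sesn1 at 9.49 ± 1.402 and mdm2 at 9.27 ± 0.677 CPM per kilobase. sesn1 and mdm2 did not differ beyond their spread. bbc3 at 2.33 ± 0.40 and cdkn1a at 0.866 ± 0.297 CPM per kilobase were lowest. So the 2 targets that carry out cell death and cell cycle arrest had the lowest levels of the 8 in all 3 genotypes.

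The wider pathway list held 66 other gene symbols in 4 roles. Of these symbols 61 were matched, to 65 gene identifiers, and 61 of the identifiers were tested. A symbol shortened for matching could match more than 1 identifier, so some paralogues not on the list are counted. No tested gene of the list passed an adjusted p of 0.05 in edgeR in any comparison. At an unadjusted p under 0.05 there were 0 in tert-/- against wild type (32 higher and 29 lower, median log2 fold change 0.00), 1 in tert+/- against wild type (40 higher and 21 lower, median 0.06) and 2 in tert-/- against tert+/- brains (25 higher and 36 lower, median −0.01). A positive log2 fold change was found for 50.2% of all genes tested in tert-/- against wild type. The share was 49.4% in tert+/- against wild type and 49.4% in tert-/- against tert+/- brains. Over all 20064 genes, 429, 1553 and 927 passed the unadjusted limit, in the same order of comparisons. Among the 15 repair, nucleotide and redox genes, 13 were higher in tert-/- against wild type (median 0.10), 10 in tert+/- against wild type (median 0.05) and 9 in tert-/- against tert+/- (median 0.02). Among the 15 arrest and growth genes, 6 were higher in tert-/- against wild type (median −0.01), 12 in tert+/- against wild type (median 0.13) and 4 in tert-/- against tert+/- (median −0.05). The 13 regulators of p53 gave 4 higher in tert-/- against wild type, 7 in tert+/- against wild type and 4 in tert-/- against tert+/-. The 18 death genes gave 9 higher in tert-/- against wild type, 11 in tert+/- against wild type and 8 in tert-/- against tert+/-.

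mdm4, the partner of Mdm2 that blocks p53, had the lowest p of the pathway list. It had 142.3, 113.2 and 151.5 CPM in tert-/- fish 1 to 3, then 191.3, 170.6, 190.4, 169.5 and 163.5 CPM in tert+/- fish 1 to 5, and 161, 141.4, 138.2, 175 and 161.2 CPM in wild-type fish 1 to 5. Every tert-/- fish lay below every tert+/- fish, as was the case for 1.23% of all genes, and the wild-type fish overlapped both. In tert-/- against tert+/- brains this gave a log2 fold change of −0.38 ± 0.11 (SE, 95% interval −0.62 to −0.15, edgeR adjusted p = 0.9751). The other gene past the unadjusted limit in this comparison is not named here. gpx1a, a glutathione peroxidase that removes hydrogen peroxide, had 49.7 ± 7.50 CPM in tert+/- brains and 40.0 ± 3.70 CPM in wild-type brains (log2 fold change 0.31 ± 0.14, 95% interval 0.01 to 0.61). Without tert+/- 4 it was 0.25 and no longer passed the unadjusted limit.

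**Figure D3:**
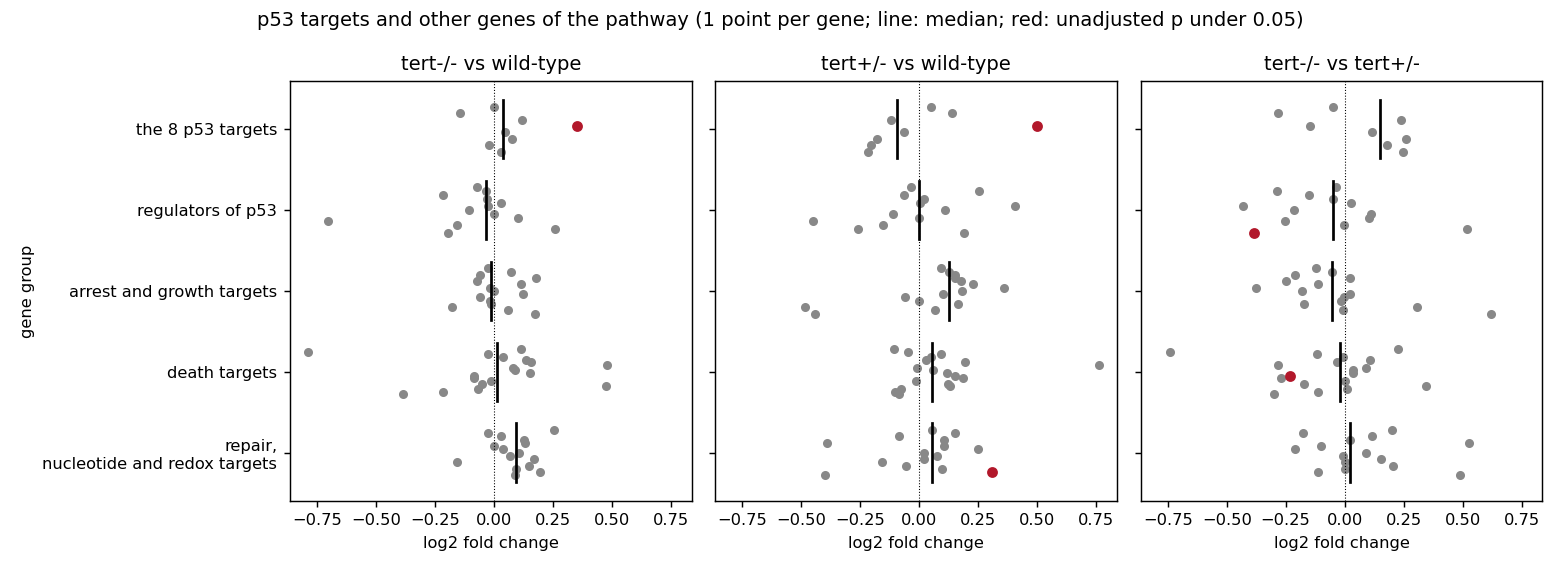
Log2 fold change (horizontal axes) of the 8 p53 targets and of the other genes of the pathway by role (rows) in the 3 comparisons, 1 point per gene, with the median as a line and an unadjusted p under 0.05 in red. Medians lie between −0.09 and 0.15, and 5 points in all are red: rrm2b in the first 2 panels, gpx1a in the second, and mdm4 and 1 death gene in the third.

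Agreement between the targets was examined from fish to fish, with the mean of each genotype removed from log2 CPM. Over the 13 fish the 28 pairs had a median Pearson's r of 0.13, with 19 pairs positive, and r ran from −0.64 to 0.80. No pair passed after Benjamini-Hochberg adjustment over the 28 pairs in a permutation test within genotypes (lowest adjusted p = 0.362), and 3 had a permutation p under 0.05. All 6 pairs among the genes that restrain p53 (mdm2, ccng1 and both ppm1d copies) were positive, with r of 0.40 to 0.80, against 13 of the other 22, whose r ran from −0.64 to 0.67. This grouping was made with the values known and was not tested.

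**Figure D4:**
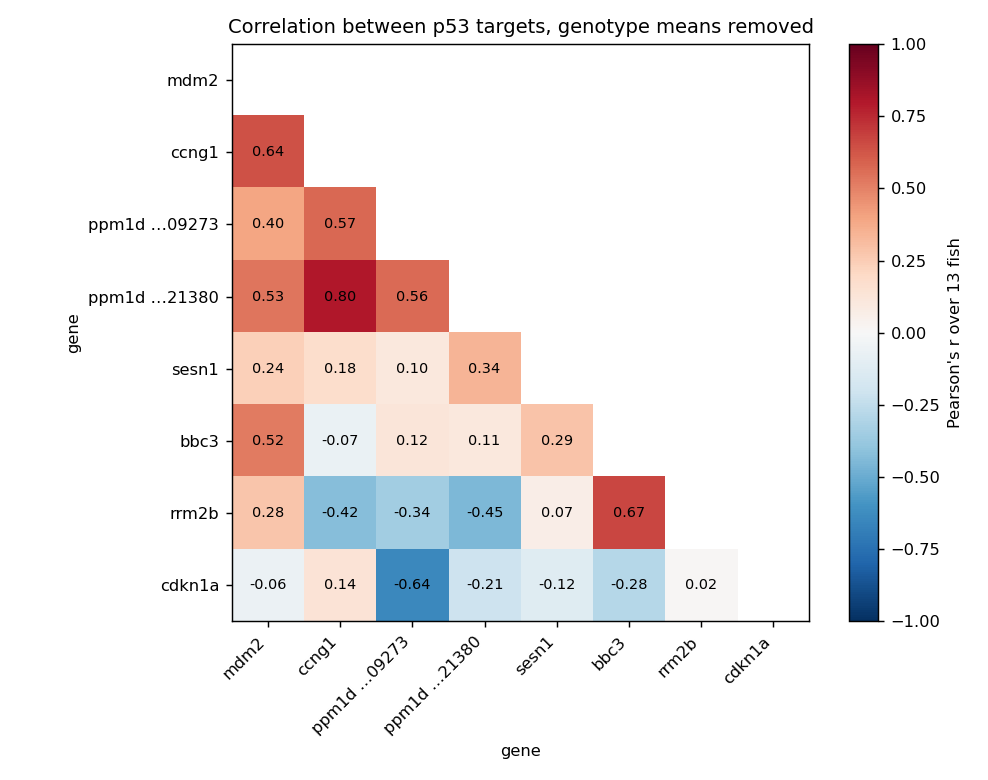
Pearson's r of log2 CPM between each pair of p53 targets over 13 fish, with genotype means removed; red is positive and blue negative, and each cell prints its r. The block of mdm2, ccng1 and both ppm1d copies is positive throughout (0.40 to 0.80), while cdkn1a is negative in 5 of its 7 pairs.

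The highest pair was ccng1 with ppm1d ENSDARG00000021380, at r = 0.80 (permutation p = 0.0409) and Spearman's rho = 0.75 (permutation p = 0.0116). Without tert-/- 1 and tert+/- 1 its r was 0.41, so the relation rests on those fish in large part. mdm2 and ccng1 gave r = 0.64 (permutation p = 0.107) and rho = 0.75 (p = 0.0149 by permutation). Without tert-/- 2 and tert+/- 5, the 2 fish farthest out in mdm2, r was 0.76. The 2 ppm1d copies gave r = 0.56 (permutation p = 0.0535). Without tert+/- 3 and wild-type 5, the 2 fish farthest out in ENSDARG00000009273, r was 0.72. Both of these reduced sets still hold tert-/- 1 and tert+/- 1. How far these 2 pairs rest on those fish was not examined.

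rrm2b gave r = 0.28 with mdm2, −0.42 with ccng1, and −0.34 and −0.45 with ppm1d ENSDARG00000009273 and ENSDARG00000021380 (permutation p = 0.501, 0.314, 0.312 and 0.303). Its closest partner among the targets was bbc3, at r = 0.67 (permutation p = 0.0474, rho = 0.53) and r = 0.52 without tert-/- 1 and tert+/- 5. The same pair gave r = 0.09 and rho = −0.02 with the genotype means left in. cdkn1a and ppm1d ENSDARG00000009273 went in opposite directions at r = −0.64 (permutation p = 0.0398, rho = −0.62), and r = −0.40 without wild-type 2 and wild-type 5. With the genotype means left in, and fish permuted across all 13 instead of within genotypes, 1 pair passed the adjustment. It was ccng1 with ppm1d ENSDARG00000021380 (r = 0.77, permutation adjusted p = 0.0431). Both the centring and the permutation differ from the main setting, so this p-value cannot be set beside the ones above.

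**Figure D5:**
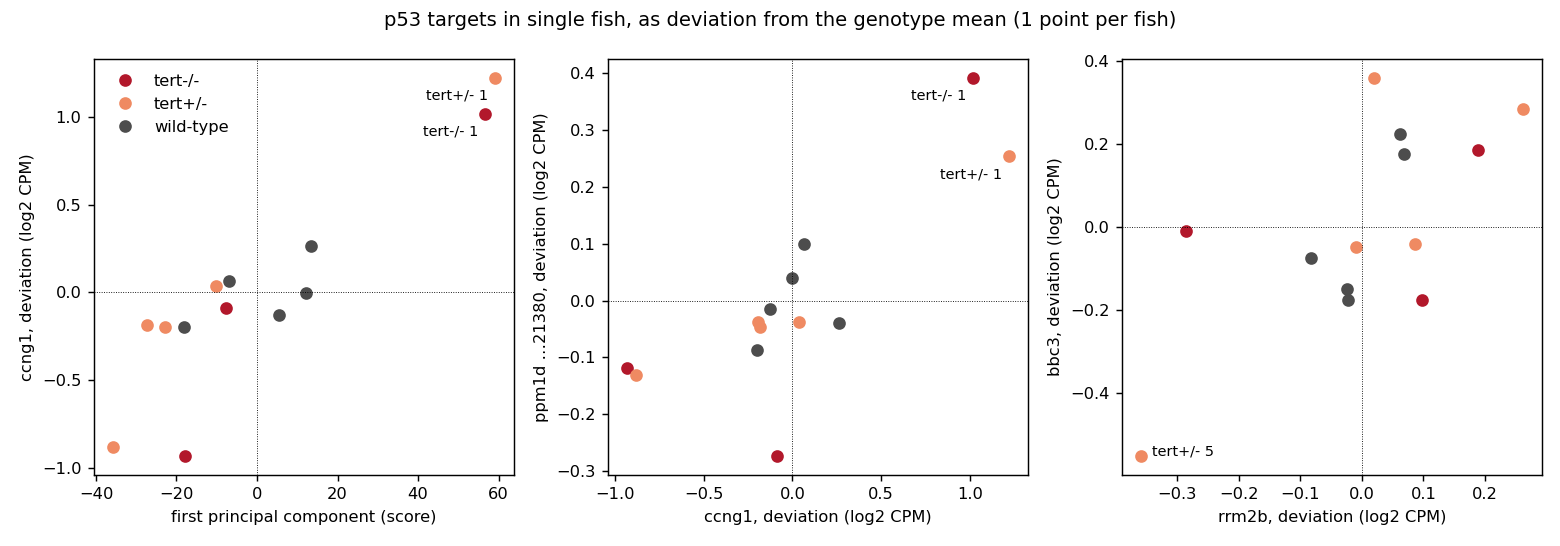
Each point is a fish, coloured by genotype, and gene axes give its deviation from its genotype mean in log2 CPM. The left panel sets ccng1 against the score on the first principal component of all genes, which is not centred by genotype. The middle panel sets ppm1d ENSDARG00000021380 against ccng1, and the right one bbc3 against rrm2b. In the left and middle panels tert-/- 1 and tert+/- 1 lie far from the other 11 fish (ccng1 deviations of 1.02 and 1.22), and in the right panel tert+/- 5 is lowest on both axes.

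Of the 8 targets, ccng1 was also the one that shared its pattern with the largest number of other genes. Its correlation over the 13 fish reached 0.8 or −0.8 with 1161 genes (5.79% of those tested), against 76 to 556 genes for each other target. The gene closest to it was PLCD4, a phospholipase C that makes calcium-releasing messengers, at r = 0.98. Within genotypes, 2.48% of the 1411 genes at a level within 2-fold of ccng1 spread more than it did. The points share 2 libraries that stood apart on the first principal component, so these correlations are a description of the same fish. For the mean of all 8 targets, each scaled to its own spread, the closest genes were SMIM29 (r = 0.93), CLINT1 (0.93), si:ch211-106h11.1 (0.91), vhl (0.91) and MAP7D1 (0.90). For single targets they were pcp4l1 for mdm2 (r = 0.92), arhgef33 for cdkn1a (0.90), MAF1, a repressor of RNA polymerase III, for rrm2b (0.92), DESI1 for bbc3 (0.92), SLC45A4 for sesn1 (0.91), and TBC1D15 and znf1172 for the ppm1d copies ENSDARG00000009273 and ENSDARG00000021380 (0.94 and 0.95). These are the highest of 17248 candidates, so high values arise by selection.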

How the data were processed

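Brain libraries of 13 zebrafish (3 tert-/-, 5 tert+/-, 5 wild-type) were analysed as deposited. According to the submitters' processing notes, the authors used bcl2fastq 1.8.4, STAR 2.4.1d with the zebrafish build GRCz10, and featureCounts 1.4.6-p4 for the counts of each Ensembl gene. The annotation release and strand setting are not given in the sources used here. The deposited counts are raw and are the basis of all values. The deposited RPKM values, which the authors derived from these counts, were used only to recover gene lengths. Of 198517 values, 8.24% gave a gene's median length within 0.2% when divided by the total of their own library, against 100% when the 13 totals were repeated down each column.

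Testing was by edgeR 4.0.16 in R 4.3.3, with TMM factors, filterByExpr with a minimum count of 10, 1 quasi-likelihood fit of all 13 libraries, 2-sided F tests and Benjamini-Hochberg adjustment over 20064 genes at 0.05. SE and 95% intervals were derived from the F statistic. Correlations used log2 CPM (prior count 2), genotype means removed, with 100000 permutations within genotype (numpy, scipy). Where the genotype means were left in, the permutations ran across all 13 fish. DESeq2 1.42.0, RLE factors, no count filter, fits of 2 genotypes only and libraries left out were the alternatives. The edgeR and DESeq2 fits were tested on simulated counts, and the correlation and outlier checks were not. The p-values set genotype differences against the spread between these fish and take the fish as independent. Nothing in the labels says how the fish were related, so this could not be checked.

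The target genes and all gene lists were chosen with earlier results of these data known. Named genes are the targets, tert, up to 3 genes of the 66-symbol pathway list per comparison and direction at an unadjusted p under 0.05, and the genes closest in pattern (mean of at least 1 CPM). Other names were chosen after their values were seen. Some genes of the list are not reported by name here. Of the identifiers, 81.8% carried a symbol, many in human form, so list symbols without a match were tried again without their paralogue suffix. This was decided after the table of names was seen and raised matched pathway symbols to 61, where 49 matched directly. Neighbouring genes follow table order and RefSeq chromosome names of another build (GRCz12tu). No sequences were used here.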

Additional observations from a re-analysis of the deposited data

Results flagged for a closer look

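Within the tert+/- and wild-type groups of 5 fish, 16 sets of target values were examined for a fish far from the rest. In 2 of them 1 fish stood apart by more than Dixon's 95% limit of 0.71 for the gap as a share of the range, which chance gives in about 1 in 20 groups. Both were tert+/- 1. ccng1 was 452.1 CPM in that fish, with the next at 199 CPM (0.73 of the range). ppm1d ENSDARG00000021380 was 24.8 CPM in it, with the next at 20.3 CPM (0.779 of the range). The 3 tert-/- fish were too few for this check.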

How the results depend on the processing

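No paired analysis was possible because the labels give no replicate numbers that the genotypes share. Over 19 alternatives, 426 of 456 log2 fold changes of the targets kept their direction and their side of the adjusted threshold. rrm2b stayed positive in both comparisons with wild type, at 0.43 to 0.58 in tert+/- and 0.27 to 0.50 in tert-/- brains with 1 library left out. Its call in tert+/- against wild type was made by DESeq2 alone (0.51, adjusted p = 0.0343), and the other alternatives gave adjusted p of 0.203 to 0.907. The cause was not tested.

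Genes called by edgeR were 0 in each comparison. DESeq2 called 16, 28 and 18 in tert-/- against wild type, tert+/- against wild type and tert-/- against tert+/-. Without the 3 photoreceptor-high libraries edgeR called 2 in tert+/- against wild type and 1 in tert-/- against tert+/-. With 1 library left out it called 0 to 1, 0 to 5 and 0 to 1 in the same order of comparisons (5 and the last 1 without tert+/- 3, the first 1 without tert+/- 4). Targets with an unadjusted p under 0.05 numbered 0 to 1, 1 to 2 and 0 to 1 with 1 library left out. They were 0 in tert-/- against wild type without the photoreceptor-high libraries, and 3 in tert+/- against wild type without tert-/- 1 and tert+/- 1, a setting added after the data were seen. In that last fit 2321 of 20362 genes passed the limit in tert+/- against wild type, beside 1553 of 20064 in the main fit. Over all genes, that limit was passed in tert-/- against wild type by 429, but by 652 without the count filter, 1159 without tert-/- 1 and 1466 without tert-/- 1 and tert+/- 1. It was passed by 1553 in tert+/- against wild type, but 1018 without the photoreceptor-high libraries, and by 927 in tert-/- against tert+/-, but 530 in a fit of these 2 genotypes alone.

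Signs that turned were all of log2 fold changes with intervals that include 0. In tert-/- against wild type without the photoreceptor-high libraries they were mdm2 −0.0060, cdkn1a 0.18, ppm1d ENSDARG00000009273 −0.011 and sesn1 −0.041. Without tert-/- 1 and tert+/- 1 they were mdm2 −0.053, cdkn1a 0.0093, ccng1 −0.54, ppm1d ENSDARG00000009273 −0.022, ppm1d ENSDARG00000021380 −0.13 and sesn1 −0.057. With 1 library left out, ranges over tert-/- against wild type were −0.048 to 0.058 for mdm2, −0.45 to 0.16 for cdkn1a, −0.54 to 0.47 for ccng1, −0.017 to 0.098 and −0.13 to 0.21 for ppm1d ENSDARG00000009273 and ENSDARG00000021380, −0.11 to 0.069 for bbc3 and −0.051 to 0.084 for sesn1. In tert+/- against wild type they were −0.010 to 0.44 for cdkn1a and −0.57 to 0.056 for ccng1, and in tert-/- against tert+/- −0.10 to 0.0038 for mdm2 and −0.42 to 0.68 for ccng1. Correlated pairs passing the adjustment were 0, and 1 with genotype means left in and fish permuted across genotypes. The 17 to 47 reads of cdkn1a per library and the 3 tert-/- fish limit the precision of its values.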
